A study of Homo sapiens with 24 samples.

Results

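A set of 8 genes of prostaglandin metabolism and signalling was followed across 24 arrays: PTGS1, PTGS2, PTGES and AKR1C3 (synthesis), HPGD and PTGR1 (breakdown), and PTGER2 and PTGER4 (receptors). These 8 genes were taken from 19775 named genes, and all 19 probe sets that carry one of their symbols alone were used, of 54613 probe sets tested. The set was chosen from the measured values of the arrays labelled LNCaP at 0.5 µM I-BET762, where HPGD and PTGER4 were lower than in vehicle. The change at 0.5 µM on those arrays is therefore a description without a test for every member. The same holds for HPGD and PTGER4 wherever those vehicle or 0.5 µM arrays enter.

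The arrays were Affymetrix U133 Plus 2.0, hybridised with RNA of 4 human lines of prostate cancer. The lines LNCaP and VCaP were derived from metastases and respond to androgen, PC3 was derived from a tumour in bone, and NCI-H660 has neuroendocrine character. Each line was kept for 24 hours in DMSO (vehicle) or in I-BET762 (GSK525762A) at 0.5 µM or at 10 µM. The compound is a small molecule that blocks the bromodomains by which BET proteins bind acetylated histones. Every group had 2 biological replicates, which gave 12 groups and 6 arrays per line. Cultured lines hold no stroma or immune cells, and a level per array cannot tell fewer expressing cells from less RNA per cell.

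The labels of the androgen-responsive pair ran against their markers, so both are called by label only. ERG, which the fusion in VCaP and NCI-H660 drives, lay between 2866.8 and 7084.5 on the 6 arrays labelled LNCaP and between 5.9 and 28.3 on the 6 labelled VCaP. On the NCI-H660 arrays it lay lower than on the former, between 65.5 and 142.7. ETV1, the ETS gene rearranged in LNCaP, lay between 14.5 and 90.3 on the former and between 191.7 and 407.8 on the latter. The arrays of PC3 were high in CAV1 (8048.5 to 18410.5) and those of NCI-H660 in NCAM1 (2739.1 to 3400.1), and the other lines reached at most 57.9 and 174.6. Each statement on the arrays labelled LNCaP or VCaP holds for the arrays so named. PC3 and NCI-H660 values do not depend on which is which, apart from the spread that all lines share in the fit.

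Prostaglandins are lipid signals made from arachidonic acid. A cyclooxygenase (PTGS1 or the inducible PTGS2) makes PGH2, and a terminal synthase such as PTGES turns it into PGE2. AKR1C3, known as prostaglandin F synthase, also makes testosterone from androstenedione and is studied in prostate cancer for that reason. HPGD (15-PGDH) begins the inactivation of PGE2 by oxidising its 15-hydroxyl group, and PTGR1 reduces the product. PGE2 acts through 4 receptors, of which PTGER2 (EP2) and PTGER4 (EP4) couple to Gs and raise cyclic AMP. In colon and other tissues HPGD is known as a brake on PGE2 that tumours often lose, and PTGS2 as the target of anti-inflammatory drugs.

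Values are linear intensities, the MAS5 signals, which the authors set to a common target of 500 across arrays. A change is on the log2 scale with its standard error (SE) from 1 limma fit of all 12 groups. A gene was called where the adjusted p was under 0.1, the change exceeded 2-fold and 1 group or both had a geometric mean signal of at least 100, the detection floor. Where the dimmer group lay under 100, the fold was taken against 100 and is given as "at least". Each gene took the probe set with its highest mean, and signals are compared between arrays for 1 probe set and never between genes. Of the 8 members, HPGD and PTGR1 reached the floor on all 24 arrays, PTGES on 20, AKR1C3 and PTGER4 on 18, PTGS2 and PTGER2 on 6, and PTGS1 on 4.

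**Figure D1:**
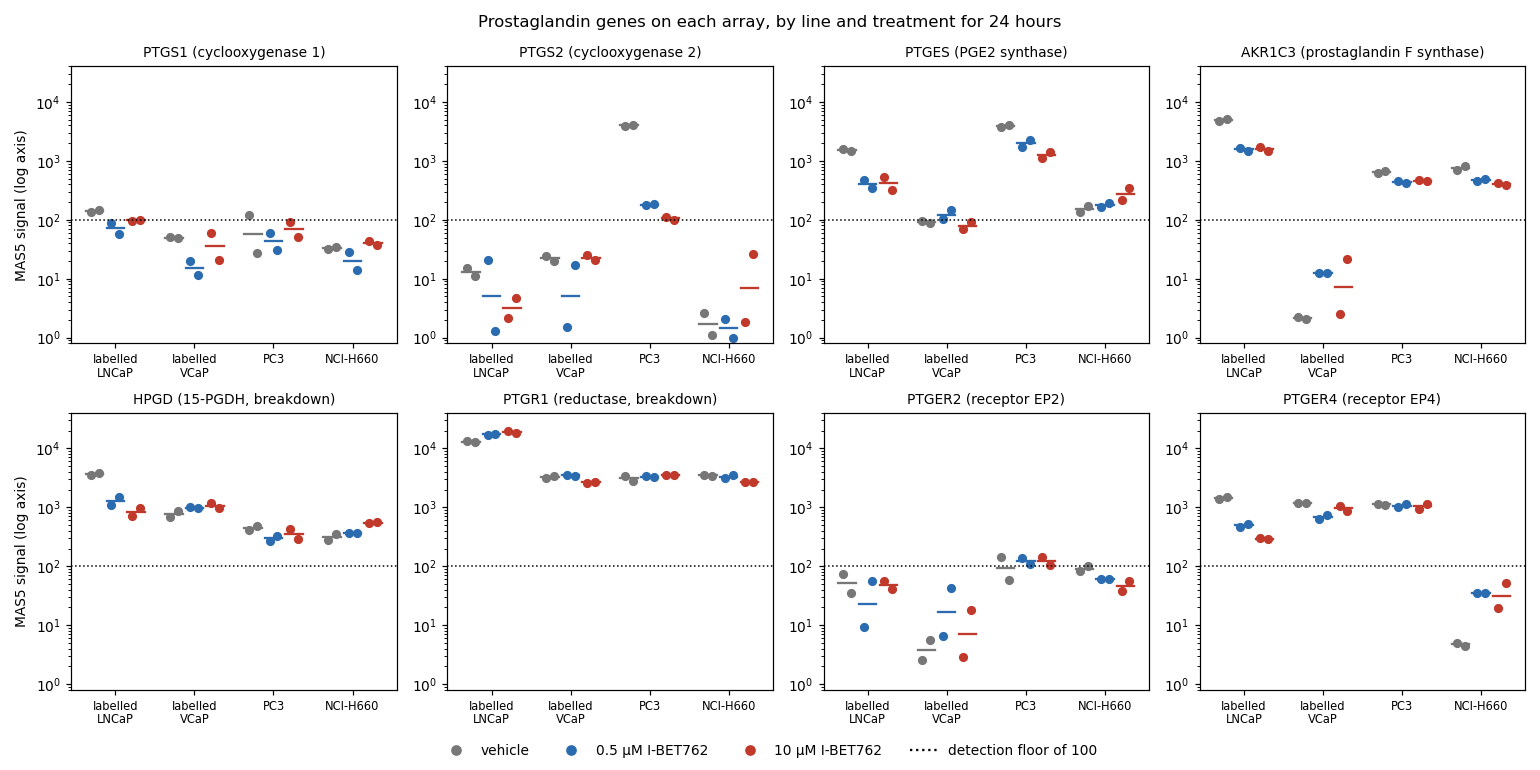
MAS5 signal (log axis) of the 8 prostaglandin genes on each array, with lines side by side and grey, blue and red marking vehicle, 0.5 µM and 10 µM I-BET762. Each dot is 1 array, each bar the geometric mean of a group, and the dots of the horizontal line mark the floor (100). PTGS2 reached the floor in PC3 alone, where it lay at 3957 and 4059 in vehicle and at 110.3 and 100.7 at 10 µM.

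Before treatment each line carried a different set of these genes. The arrays labelled LNCaP held the highest HPGD, PTGR1 and AKR1C3, PC3 held the highest PTGES and was the single line with PTGS2, and PTGER4 was present in every line but NCI-H660. In vehicle, 5 of 8 members were higher on the arrays labelled LNCaP than on those labelled VCaP, against 18.7% of all genes called in either direction in that comparison. Against PC3, 3 were higher and 2 lower (22.8% of all genes called), and against NCI-H660, 6 were higher (28.4%). The arrays labelled VCaP had 3 members lower than PC3 (22.4%), and 2 higher and 1 lower than NCI-H660 (27.7%). PC3 had 3 higher than NCI-H660 (28.2%). Lines differ in a large share of all genes, and those shares are the background for these counts. Nothing is read from the counts with the LNCaP label, which include HPGD and, against NCI-H660, PTGER4, both chosen on those arrays.

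PTGES, the inducible PGE2 synthase, stood in a clear order in vehicle. It lay at 3796 and 3998 in PC3, at 1611 and 1445 on the arrays labelled LNCaP, at 136 and 173 in NCI-H660, and at 96.6 and 87 on the arrays labelled VCaP. PC3 exceeded the arrays labelled LNCaP by 1.35 ± 0.29 on the log2 scale (adjusted p = 0.00198), and these exceeded NCI-H660 by 3.32 ± 0.29 (adjusted p = 4.9e-07). NCI-H660 and the arrays labelled VCaP differed by 0.74 ± 0.29 (adjusted p = 0.0574), less than 2-fold. PTGS2 was at least 40.1-fold higher in PC3 than in each other line (adjusted p = 0.000214, 0.000503 and 1.11e-05 against the arrays labelled LNCaP, those labelled VCaP and NCI-H660). AKR1C3 lay at 4819 and 5114 on the arrays labelled LNCaP, and was 6.5-fold higher there than in NCI-H660 (adjusted p = 0.00248). NCI-H660 and PC3 did not differ beyond their spread (0.26 ± 0.61, adjusted p = 0.789), and PC3 was at least 6.39-fold above the arrays labelled VCaP, where AKR1C3 read 2.27 and 2.1. PTGR1, the prostaglandin reductase, was 3.72-fold higher on the arrays labelled LNCaP than in NCI-H660 (adjusted p = 1.03e-08). NCI-H660 against the arrays labelled VCaP (adjusted p = 0.482) and these against PC3 (adjusted p = 0.817) did not differ beyond their spread.

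HPGD followed the order labelled LNCaP, labelled VCaP, PC3, NCI-H660. The arrays labelled LNCaP were 4.71-fold, 8.14-fold and 11.7-fold above the other lines in that order, a description because HPGD was chosen on them. Among the other lines, the arrays labelled VCaP lay 0.79 ± 0.23 on the log2 scale above PC3 (adjusted p = 0.0152) and PC3 lay 0.52 ± 0.23 above NCI-H660 (adjusted p = 0.092), both under 2-fold. PTGER4 did not separate the arrays labelled VCaP from PC3 (0.09 ± 0.31, adjusted p = 0.876), and PC3 was at least 11.2-fold above NCI-H660 (adjusted p = 3.83e-10), whose vehicle arrays read 5.04 and 4.46. PTGS1, the constitutive cyclooxygenase, lay at 138 and 146 on the arrays labelled LNCaP, and its group mean was under the floor in every other line. PTGER2 had group means under the floor in vehicle in all 4 lines.

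On the arrays labelled LNCaP, PTGES, AKR1C3, HPGD and PTGER4 were lower at both concentrations, and PTGR1 was slightly higher. At 0.5 µM, the contrast that chose the set, 4 of 8 members met the call rule, all lower, beside 4.99% of all genes, and nothing is read from that count. At 10 µM the same 4 members met it, all lower (13% of all genes were called), and 6 of the 8 had a group at the floor. HPGD and PTGER4 are among them by choice, so nothing is read from that count either. Of those 4, PTGES and AKR1C3 were not named in the rule that chose the set, and their 10 µM contrast was tested with vehicle arrays that the choice had used. At 0.5 µM, HPGD (2.88-fold lower) and PTGER4 (2.89-fold lower) lay beyond the 2-fold limit. PTGS1 lay just short of it by its main probe set (-0.98 ± 0.64 on the log2 scale). By another probe set it lay just beyond (-1.01 ± 0.47), and neither was called.

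HPGD, the PGE2-inactivating enzyme, read 3494 and 3789 in vehicle, 1082 and 1473 at 0.5 µM, and 700.05 and 956 at 10 µM on the arrays labelled LNCaP. No array of one group overlapped another group, and the untreated arrays labelled VCaP read 689.8 and 864. The change was -1.53 ± 0.23 at 0.5 µM and -2.15 ± 0.23 at 10 µM on the log2 scale, or 4.45-fold lower at 10 µM. All 4 probe sets of HPGD lay lower, by -1.66 to -1.26 at 0.5 µM and by -2.49 to -2.15 at 10 µM.

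On the arrays labelled VCaP the same gene read 689.8 and 864 in vehicle, 1001 and 980.3 at 0.5 µM, and 1167 and 956 at 10 µM. All treated arrays were above both vehicle arrays, but the change did not pass the test (0.36 ± 0.23, adjusted p = 0.442, and 0.45 ± 0.23, adjusted p = 0.231). All 4 probe sets lay higher, by 0.2 to 0.55 at 0.5 µM and by 0.32 to 0.53 at 10 µM. Among them 1 passed by limma adjusted p at both (0.0198 and 0.0125), under 2-fold. In NCI-H660, HPGD read 276 and 352, then 362 and 374, then 545 and 556. The 10 µM value lay 0.82 ± 0.23 above vehicle (adjusted p = 0.0305), 1.76-fold and so under the 2-fold minimum, and all 4 probe sets gave between 0.74 and 0.82. In PC3 it read 408 and 489 in vehicle, 268 and 331 at 0.5 µM, and 422 and 288 at 10 µM. Neither change of this probe set passed (adjusted p = 0.218 and 0.413). All 4 probe sets lay lower there, by -0.76 to -0.1 at 0.5 µM and by -0.81 to -0.01 at 10 µM. A dimmer probe set passed by limma adjusted p at both (0.057 and 0.0175), and another at 0.5 µM (0.058), all under 2-fold. The response at 10 µM differed among the arrays labelled VCaP, PC3 and NCI-H660 (limma F test, adjusted p = 0.0643).

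PTGER4, the EP4 receptor, read 1375 and 1473 in vehicle, 467 and 519 at 0.5 µM, and 307 and 285 at 10 µM on the arrays labelled LNCaP. The groups did not overlap, and the level stepped down with each concentration. The change was -1.53 ± 0.31 at 0.5 µM and -2.27 ± 0.31 at 10 µM, or 4.81-fold lower at 10 µM. On the arrays labelled VCaP it read 1174 and 1198, then 642 and 735, then 1059 and 869. There the lower of the treated groups was 0.5 µM, and neither change passed (-0.79 ± 0.31, adjusted p = 0.155, and -0.31 ± 0.31, adjusted p = 0.617). In PC3, PTGER4 read 1135 and 1100.2 in vehicle, 1014 and 1129 at 0.5 µM, and 928 and 1154 at 10 µM. The PC3 groups overlapped, and the 95% interval of the change at 10 µM ran from -0.77 to 0.55. NCI-H660 arrays all lay under the floor, between 4.46 and 51.5, and no fold is given. The second probe set of PTGER4 read at most 35 on every array, so this gene rests on a single probe set.

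The 250 bases upstream of the annotated starts of HPGD and PTGER4 are shown because these genes were lower together on the arrays labelled LNCaP, and those of PTGS2 because it had the largest change of the set, a choice made after its values were seen. RefSeq windows on GRCh38.p14 matched all 8 members, with 11 windows of 300 bases in all, from 250 before to 50 after a start. Each window was searched on both strands for CACGTG (the E-box of MYC), TATAAA (the TATA box), TGACGTCA (the cyclic AMP response element) and GGGCGG (the GC box of SP1). Capitals mark matches on either strand, written on the strand of the gene.
HPGD, chr4:174522489-174522738, minus strand: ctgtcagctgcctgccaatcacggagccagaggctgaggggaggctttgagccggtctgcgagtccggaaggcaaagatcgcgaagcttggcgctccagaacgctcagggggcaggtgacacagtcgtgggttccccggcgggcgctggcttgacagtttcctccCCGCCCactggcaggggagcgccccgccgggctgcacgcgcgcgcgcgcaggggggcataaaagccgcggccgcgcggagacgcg
PTGER4, chr5:40679665-40679914, plus strand: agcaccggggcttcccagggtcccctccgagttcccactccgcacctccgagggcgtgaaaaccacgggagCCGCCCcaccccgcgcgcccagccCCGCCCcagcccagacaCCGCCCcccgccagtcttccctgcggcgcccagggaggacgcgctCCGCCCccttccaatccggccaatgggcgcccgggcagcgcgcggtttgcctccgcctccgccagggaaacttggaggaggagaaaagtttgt
PTGS2, chr1:186680424-186680673, minus strand: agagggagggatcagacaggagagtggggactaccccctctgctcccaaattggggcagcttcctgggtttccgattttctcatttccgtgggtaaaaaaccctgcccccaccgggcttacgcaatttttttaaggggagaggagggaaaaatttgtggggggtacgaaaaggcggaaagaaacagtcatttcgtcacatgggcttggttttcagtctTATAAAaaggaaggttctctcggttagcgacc

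The HPGD window held GGGCGG at -85, 12 and 16 from the start (the last pair overlap) and CACGTG at 41, counting the first base of a match. PTGER4 held 4 GC boxes, at -179, -155, -138 and -93. PTGS2 held no GC box and a TATA box at -32. Of 35116 windows of this length, 45% held GGGCGG, 11.5% TATAAA, 7.26% CACGTG and 1.85% TGACGTCA. A second HPGD window, whose start lies 405 bases further upstream, held none of the 4 motifs. The G and C content was 71% for the HPGD window shown, 44.7% for its second window, 72% for PTGER4 and 50.7% for PTGS2. For PTGES and AKR1C3, also lower with the LNCaP label, it was 61.7% (PTGES) and 33.7% and 36.7% (AKR1C3 windows). PTGES held GC boxes at -89 and -78 and no TATA box. AKR1C3 held no GC box, and a TATA box at -26 in its first window. A link between these sequences and the changes was not tested. These are matches of letters, and no binding was measured.

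Of the 4 synthesis members, PTGES and AKR1C3 were called on the arrays labelled LNCaP at 10 µM, and PTGS1 and PTGS2 were not. PTGES read 1611 and 1445 in vehicle, 475 and 349.6 at 0.5 µM, and 531 and 326 at 10 µM. Both treated groups lay well under vehicle and overlapped each other. The change was -1.91 ± 0.29 at 0.5 µM, and at 10 µM PTGES fell by 1.87 ± 0.29 on the log2 scale (3.67-fold, adjusted p = 0.000249). Its second probe set read 546 and 587 in vehicle and 144 and 131 at 10 µM, and both probe sets were called lower at 10 µM, where their changes ran from -2.04 to -1.87.

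AKR1C3 read 4819 and 5114 in vehicle, 1652 and 1482 at 0.5 µM, and 1720.3 and 1457 at 10 µM. The 10 µM arrays lay 3.14-fold under vehicle and level with those at 0.5 µM (change -1.65 ± 0.61 from vehicle, adjusted p = 0.0679). That call was lost on leaving out either array of the vehicle or 10 µM group (adjusted p from 0.15 to 0.22) and under quantile normalization (adjusted p = 0.103), with changes between -1.77 and -1.53. The SE takes in arrays labelled VCaP that read between 2.1 and 21.3. With signals under 50 set to 50 those arrays become equal, and the SE of 0.09 is small in part by construction. AKR1C3 has close paralogs, and its single probe set could bind their transcripts. Single-symbol probe sets of AKR1C1 and AKR1C2 read at most 79.8 and 38.7 on the 24 arrays, and their part in the AKR1C3 signal was not tested.

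PTGR1 read 13395 and 12629 in vehicle, 17161 and 17844 at 0.5 µM, and 19406 and 18397 at 10 µM on the arrays labelled LNCaP. The 3 groups did not overlap, and the level lay higher at each step. At 10 µM it was 0.54 ± 0.11 above vehicle on the log2 scale (adjusted p = 0.00235), under the 2-fold minimum. A dimmer probe set of PTGR1 read 4914 and 4956 in vehicle and 10819 and 11651 at 10 µM and was called higher (1.19 on the log2 scale, adjusted p = 5.71e-05), so the size of this rise differed between probe sets. In NCI-H660 the same gene read 3539 and 3451 in vehicle and 2685 and 2725 at 10 µM, and was 0.37 ± 0.11 lower (adjusted p = 0.0421), with all 3 probe sets lower by -0.62 to -0.37. PTGS1 read 89.7 and 57.7 at 0.5 µM and 95.6 and 100.8 at 10 µM with the LNCaP label, and its change at 10 µM did not pass (adjusted p = 0.652).

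**Figure D2:**
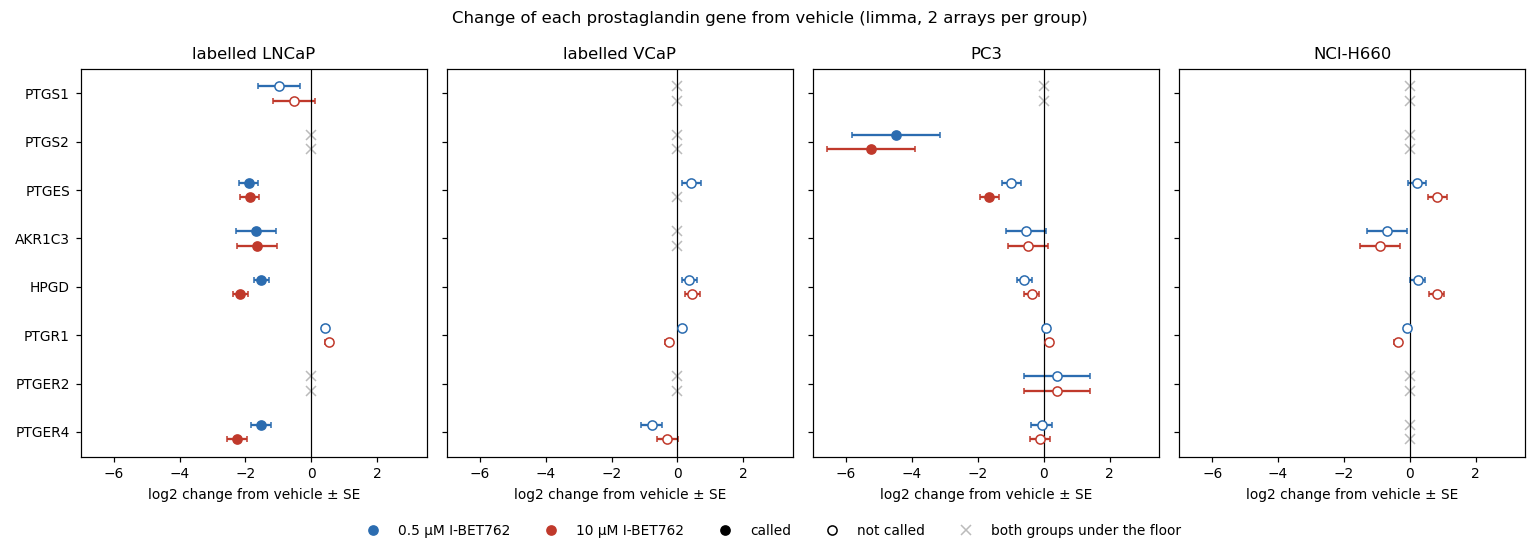
Change from vehicle (log2 signal, points, with SE as bars) of each prostaglandin gene at 0.5 µM (blue) and 10 µM (red) in each labelled line, from limma with 2 arrays per group. Filled points were called, open points were not, and grey crosses stand at 0 where both groups lay under the floor. With the LNCaP label, every point at 0.5 µM and those of HPGD and PTGER4 at 10 µM are a description. Their filling there is not a test, as these arrays chose the set. PTGES, AKR1C3, HPGD and PTGER4 lie between -2.27 and -1.53 on the arrays labelled LNCaP, and PTGS2 lies at -4.47 and -5.25 in PC3.

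In PC3 the called members were PTGS2 and PTGES, and HPGD, PTGR1 and both receptors had no call. The PGE2 synthases PTGES2 and PTGES3, outside the set, were not called there either. PTGES2 read 1194 and 1309 in vehicle and 1289 and 1053 at 10 µM. PTGES3 read 16328 and 15472 in vehicle and 17677 and 16354 at 10 µM. At 0.5 µM 1 of 8 members was called, PTGS2, lower, against 1.24% of all genes. At 10 µM 2 of 8, PTGS2 and PTGES, were called lower, against 4.28% of all genes. In both contrasts 7 members had a group at the floor.

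PTGS2, the inducible cyclooxygenase, read 3957 and 4059 in vehicle, 179 and 182 at 0.5 µM, and 110.3 and 100.7 at 10 µM in PC3. The replicates lay close together, and the treated arrays came down almost to the detection floor. The signal was 22.2-fold lower at 0.5 µM (-4.47 ± 1.33, adjusted p = 0.0957) and 38-fold lower at 10 µM (-5.25 ± 1.33, adjusted p = 0.0216). The second probe set read 1917 and 2049 in vehicle, 66.7 and 92 at 0.5 µM, and 67.1 and 57.8 at 10 µM, and was called lower at both (adjusted p = 0.089 and 0.0312).

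The SE of PTGS2 comes from a spread shared over all lines, and the 18 arrays of the other lines read between 1 and 25.9, near background. With signals under 50 set to 50 the change was the same. That setting makes those 18 arrays equal, so its SE of 0.03 is small by construction and no p is given for it. The 0.5 µM call was lost with the replicate block (adjusted p = 0.182), with PC3 fitted alone (adjusted p = 0.183), with median centring (adjusted p = 0.109), and on leaving out any PC3 vehicle or 0.5 µM array (adjusted p from 0.226 to 0.272), and on leaving out several arrays of other groups. The 10 µM call held under each of these settings, with adjusted p between 0.0232 and 0.0957.

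PTGES in PC3 read 3796 and 3998 in vehicle, 1736 and 2249 at 0.5 µM, and 1099 and 1415 at 10 µM. The 3 groups did not overlap and stepped down with concentration. The change at 0.5 µM was -0.98 ± 0.29 (1.97-fold, adjusted p = 0.0899), just short of the 2-fold minimum. At 10 µM PTGES fell by 1.64 ± 0.29 on the log2 scale (3.12-fold, adjusted p = 0.0022), and both probe sets were called lower. With PC3 fitted alone the change was the same and the call was lost (adjusted p = 0.106). In NCI-H660, PTGES read 136 and 173 in vehicle and 219 and 342 at 10 µM (0.84 ± 0.29, adjusted p = 0.0767, under 2-fold). Its second probe set there changed by -0.2, so the direction in NCI-H660 depended on the probe set. The PTGES response at 10 µM differed among the arrays labelled VCaP, PC3 and NCI-H660 (limma F test, adjusted p = 0.00407), and so did that of PTGS2 (adjusted p = 0.0484). For PTGS2 the other lines were under the floor, and its second probe set did not pass the F test at 10 µM (adjusted p = 0.394).

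AKR1C3 read lower on every treated array of PC3 and NCI-H660, without passing the test. In PC3 it read 613 and 666 in vehicle and 474 and 449 at 10 µM (adjusted p = 0.748). In NCI-H660 it read 708 and 823 in vehicle and 415 and 393 at 10 µM (-0.92 ± 0.61, adjusted p = 0.408), and the 95% interval ran from -2.23 to 0.39. PTGER2, the EP2 receptor, never exceeded 142 on any array, and its PC3 arrays lay at 142 and 59.3 in vehicle and at 142 and 105 at 10 µM.

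No member was called on the arrays labelled VCaP at 0.5 µM (3.23% of all genes) or 10 µM (7.92%), and before adjustment 3 and 2 members had a limma p under 0.05. At 0.5 µM these were PTGER4 (lower) and, with both groups under the floor, AKR1C3 and PTGS1, and at 10 µM PTGR1 and, under the floor, AKR1C3. PTGR1 was lower by its brightest probe set (-0.27) and higher by its other probe sets (0.19 and 0.33). No member was called in NCI-H660 at 0.5 µM (0.92% of all genes) or 10 µM (5.66%), and before adjustment 1 member (PTGER4) and 4 members (PTGES, HPGD, PTGR1 and PTGER4) had a limma p under 0.05, PTGER4 with both groups under the floor. Only 3 or 4 members had a group at the floor in these contrasts. The share of all genes with an unadjusted p under 0.05 was not taken, so nothing is read from the unadjusted counts. Under other settings of the same tool 1 to 3 members passed in NCI-H660 at 10 µM, given without a share of all genes.

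Setting 10 µM directly against 0.5 µM called no member in any line. That leaves aside HPGD and PTGER4 with the LNCaP label, which were chosen on those 0.5 µM arrays. Of all genes, 2.01% were called with the LNCaP label, 1.05% with the VCaP label, 0.162% in PC3 and 0.668% in NCI-H660. With the LNCaP label HPGD and PTGER4 lay lower at 10 than at 0.5 µM, given without a test, and none of the other 6 members had an unadjusted limma p under 0.05. In the other lines it was under 0.05 for PTGR1 with the VCaP label (1), for PTGES in PC3 (1), and for HPGD and PTGR1 in NCI-H660 (2). Nothing is read from these unadjusted counts, as the share of all genes at that limit was not taken. Among the 3 lines that did not choose the set, the response differed for 2 members at 0.5 µM, AKR1C3 and PTGER4, against 7.59% of all genes. At 10 µM it differed for 5, PTGS2, PTGES, HPGD, PTGR1 and PTGER4, against 20.8%. The differences of AKR1C3 and PTGER4 rest mainly on changes between groups that were both under the floor. These were the rise of AKR1C3 with the VCaP label (2.53 at 0.5 µM) and that of PTGER4 in NCI-H660 (2.9 at 0.5 µM and 2.74 at 10 µM). With signals under 50 set to 50, PTGER4 was no longer among those at 10 µM and AKR1C3 was. That setting makes the AKR1C3 arrays with the VCaP label equal, so its spread is small in part by construction, and nothing is read from its gain.

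**Figure D3:**
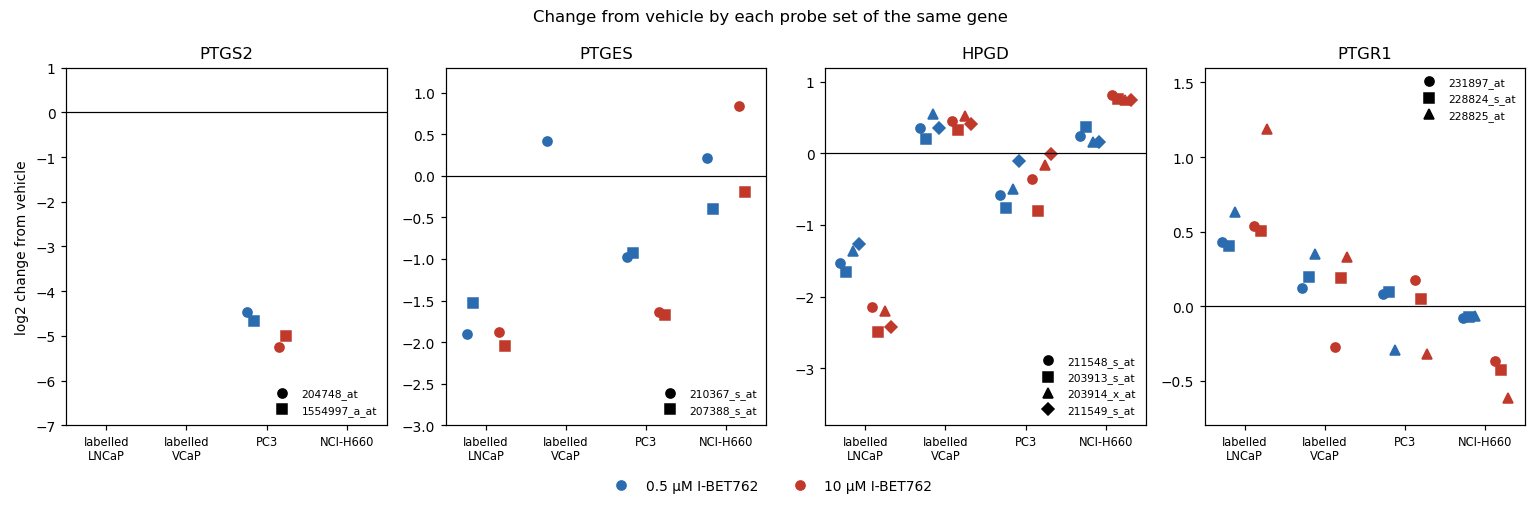
Change from vehicle (log2 signal) by each probe set of PTGS2, PTGES, HPGD and PTGR1 in each labelled line, at 0.5 µM (blue) and 10 µM (red). Symbols are probe sets of the gene, the circle being the one used in the text, and points are left out where both groups lay under the floor. The 4 HPGD probe sets lie between -2.49 and -2.15 at 10 µM with the LNCaP label, and those of PTGES lie on both sides of 0 in NCI-H660.

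The other genes of the pathway were read from a list of 29, of which 26 were measured. With the LNCaP label at 10 µM, 1 was called higher and 4 lower, where 13% of all genes were called. The median change was -0.22 beside 0.06 over all genes. With the VCaP label at 10 µM, 2 were lower (median -0.2, all genes 0.06), where 7.92% of all genes were called. In PC3 1 was lower (median -0.28, all genes -0.01), with 4.28% of all genes called. In NCI-H660 1 was higher and 1 lower (median -0.09, all genes -0.07), with 5.66% of all genes called. At 0.5 µM 1 was called lower on the arrays labelled VCaP (3.23% of all genes), 1 in PC3 (1.24%) and none in NCI-H660 (0.92%).

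ABCC4, a transporter that exports PGE2, read 5465 and 4933 in vehicle, 4556 and 4717 at 0.5 µM, and 1531 and 1321 at 10 µM on the arrays labelled LNCaP. It was nearly level at 0.5 µM and fell by 1.87 ± 0.27 on the log2 scale at 10 µM (3.65-fold, adjusted p = 0.00017). On those labelled VCaP it read 5147 and 5138 in vehicle, and 1898 and 1775 at 10 µM (2.8-fold lower, adjusted p = 0.00168). PC3 read 879.9 and 997 in vehicle and 876 and 871 at 10 µM, and NCI-H660 stayed under the floor.

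CBR3, a carbonyl reductase related to the PGE2 reductase CBR1, read 545 and 451 in vehicle, 159.6 and 122 at 0.5 µM, and 218 and 189 at 10 µM on the arrays labelled VCaP. It was 3.56-fold lower at 0.5 µM (adjusted p = 3.1e-05) and 2.44-fold lower at 10 µM (adjusted p = 0.000254). In PC3 it read 2084 and 1599 in vehicle and 536 and 668 at 10 µM, and was 2.06-fold lower at 0.5 µM (adjusted p = 0.00836) and 3.05-fold lower at 10 µM (adjusted p = 0.000113). On the arrays labelled LNCaP it stayed between 1504 and 1896.

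Phospholipases release arachidonic acid. Of the 4 that were measured, 2 were called lower at 10 µM with the LNCaP label, where 13% of all genes were called. PLA2G4A and PLA2G6 had both groups under the floor. PLA2G2A, the secreted phospholipase, read 580.4 and 578 in vehicle and 144 and 119 at 10 µM (4.43-fold lower, adjusted p = 0.0493). PLA2G4C, a cytosolic phospholipase, went from 3094 and 2939 to 853 and 1177 (3.01-fold lower, adjusted p = 0.0832). PTGDR2, a PGD2 receptor, went from a mean of 124 to one under the floor (at least 1.24-fold lower, adjusted p = 0.0319). PTGDS, the PGD2 synthase, read 42.4 and 142 in vehicle, 335 and 351 at 0.5 µM, and 168 and 143 at 10 µM, and was at least 1.55-fold higher at 10 µM (adjusted p = 0.0911). Its vehicle arrays lay far apart, and 1 of them nearly met the 10 µM arrays. In NCI-H660 at 10 µM, PTGFRN, a partner of the PGF2 alpha receptor, went from 540.4 and 691 to 248 and 191 (2.81-fold lower, adjusted p = 1.67e-05). PTGER3, the EP3 receptor, rose from a mean under the floor to 169.7 there (at least 1.7-fold, adjusted p = 0.0473).

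**Figure D4:**
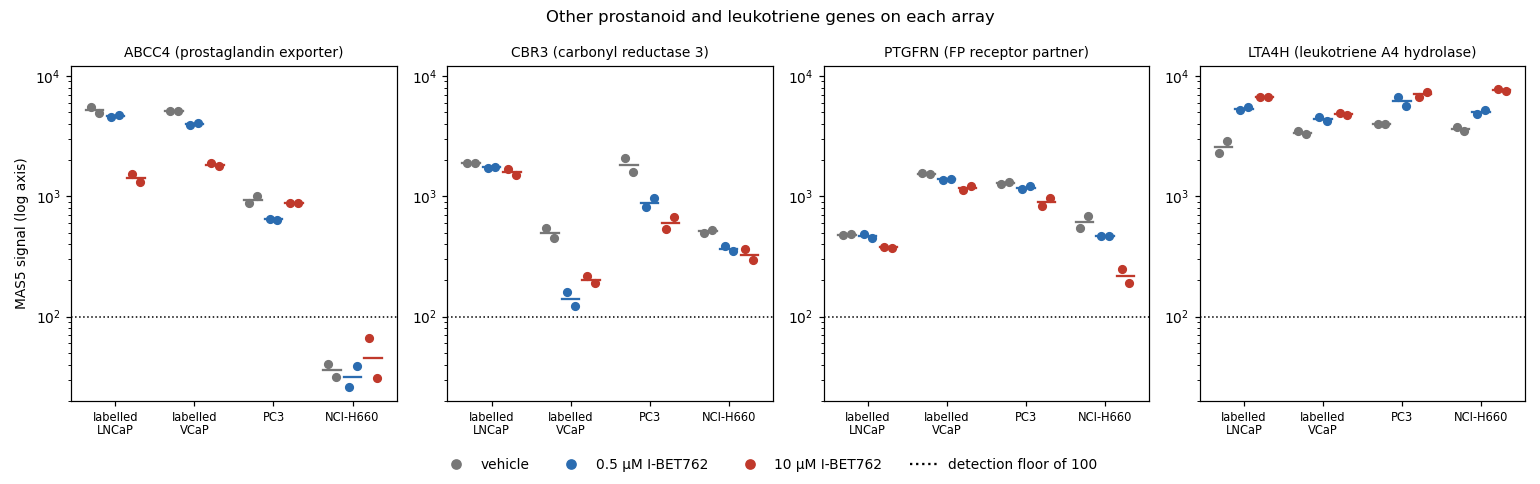
MAS5 signal (log axis) of ABCC4, CBR3, PTGFRN and LTA4H on each array, with lines side by side and grey, blue and red marking vehicle, 0.5 µM and 10 µM I-BET762. Each dot is 1 array, each bar the geometric mean of a group, and the horizontal dotted line the floor (100). For ABCC4 the 10 µM arrays with the labels LNCaP and VCaP lie lower, at between 1321 and 1898.

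Of 15 lipoxygenase and leukotriene genes, 14 were measured. LTA4H, which makes leukotriene B4, read 2281 and 2877 in vehicle and 6654 and 6678 at 10 µM on the arrays labelled LNCaP (2.6-fold higher, adjusted p = 3.15e-06). In NCI-H660 it went from 3762 and 3460 to 7800.3 and 7440.3 (2.11-fold higher, adjusted p = 9.05e-05). At 10 µM it also rose in PC3 (0.81 on the log2 scale, adjusted p = 0.00105) and with the VCaP label (0.52, adjusted p = 0.0118), both under 2-fold. ALOX15, which oxidises arachidonic and linoleic acid, fell under the floor at 10 µM on the arrays labelled LNCaP (at least 1.69-fold lower, adjusted p = 0.0442), and GGT1, which converts leukotriene C4, did so in NCI-H660 (at least 1.86-fold lower, adjusted p = 0.0543). The list's median change at 10 µM lay between -0.14 and 0.32 in the 4 lines, beside -0.07 to 0.06 over all genes.

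PTGR1 is known as a target of NRF2, the oxidative stress factor, and 15 of 17 listed NRF2 targets were measured. Among them, with the LNCaP label at 10 µM, HMOX1 (at least 2.06-fold, adjusted p = 2.03e-06) and GCLC (2.07-fold, adjusted p = 3.08e-05) were called higher and ME1 lower (3.02-fold, adjusted p = 1e-06), with a median of 0.24 over the list and 0.06 over all genes. In PC3, AKR1B10, a relative of AKR1C3, went from a mean of 2966 to 489 at 10 µM (6.06-fold lower, adjusted p = 0.0214), and EPHX1 was 2.28-fold higher (adjusted p = 6.54e-05). In NCI-H660 at 10 µM, SRXN1 (2.64-fold, adjusted p = 6e-05) and PGD (2.21-fold, adjusted p = 6.59e-06) were called higher. A link between NRF2 and PTGR1 was not tested. No NRF2 target was called on the arrays labelled VCaP by limma, where 3.23% of all genes were called at 0.5 µM and 7.92% at 10 µM. By adjusted p alone 3 were higher and 2 lower at 10 µM, given without a share of all genes.

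EP2 and EP4 raise cyclic AMP, and 10 of 12 listed cyclic AMP response genes were measured. With the LNCaP label at 10 µM, FOS went from a mean of 10.1 to 981 (at least 9.81-fold higher, adjusted p = 1.36e-07) and DUSP1, a phosphatase of MAP kinases, was 2.43-fold higher (adjusted p = 4.53e-05). PDE4D, which degrades cyclic AMP, was 2.13-fold lower (adjusted p = 0.00151) and CREB3L1 at least 4.22-fold lower (adjusted p = 0.00704). At 10 µM FOS also rose in PC3 (at least 3.43-fold, adjusted p = 0.016) and PDE4D fell in NCI-H660 (2.25-fold, adjusted p = 0.00219). Cyclic AMP was not measured, and a link between these genes and PTGER4 was not tested. The list's median on the arrays labelled LNCaP was 0.38, beside 0.06 over all genes.

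Across the 24 arrays, the genes whose log2 signal (signals under 50 set to 50) ran most like that of HPGD, among 13003 genes compared, were LINC00992 (Pearson r = 0.918), PEBP1 (0.909) and RELL2 (0.905). For PTGER4 they were SSBP1 (0.983), THRB (0.976) and EMC4 (0.974). The 24 points share 4 lines, so these values describe differences between lines as much as responses.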

How the data were processed

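The members, gene lists and tests were chosen with earlier results of these data known. Linear signal intensities were deposited by the authors, computed with MAS5 and scaled to a target of 500 (trimmed mean 500 on every array). Of 54675 probe sets, 62 controls were left out. The platform table, which can be old, gave 41091 probe sets 1 symbol, 1801 several and 11721 none, and no gene was named from several. Median signals lay between 72.2 and 100.3, and 2 arrays per group limit the precision.

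On the log2 scale, 12 groups were modelled in limma 3.58.1 (R 4.3.3) with 12 residual degrees of freedom and Benjamini-Hochberg adjustment over all probe sets in each contrast. An F test compared the response among the 3 lines that had not chosen the set. The fit was tested on simulated data. All members were named, and from each list the called genes, up to 6 per line. A gene took its brightest probe set, with cross-hybridising (_x_at) sets used only where no other existed. The replicate number paired no arrays (correlation of same-numbered deviations -0.077 to 0.091). Alternatives were quantile normalization, no floor or a floor of 200, each line alone, an intensity trend, median centring, a replicate block, an adjusted p under 0.05, the mean over probe sets, no fold minimum, signals under 50 set to 50, and each array left out. A fit of PC3 and NCI-H660 alone was added after the data were seen. Figures used matplotlib 3.10.9, and protein sequences were not used here.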

Additional observations from a re-analysis of the deposited data

Results flagged for a closer look

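Response differences among the arrays labelled VCaP, PC3 and NCI-H660 passed the limma F test for 2 members at 0.5 µM and for 5 at 10 µM, which singles these values out. At 0.5 µM they were AKR1C3 (adjusted p = 0.076, changes 2.53, -0.53 and -0.69 in that order of lines) and PTGER4 (adjusted p = 0.000552, changes -0.79, -0.06 and 2.9). The rise of AKR1C3 on the arrays labelled VCaP and that of PTGER4 in NCI-H660 lie wholly under the floor of 100. At 10 µM they were PTGS2 (adjusted p = 0.0484), PTGES (adjusted p = 0.00407, changes -0.2, -1.64 and 0.84), HPGD (adjusted p = 0.0643, changes 0.45, -0.36 and 0.82), PTGR1 (adjusted p = 0.0654, changes -0.27, 0.17 and -0.37) and PTGER4 (adjusted p = 0.000737, changes -0.31, -0.11 and 2.74). PTGS2 was above the floor in PC3 alone, where it changed by -5.25. Its second probe set, which changed by -4.99 there, did not pass the F test (adjusted p = 0.394). Each group holds 2 arrays, so no array could be tested as standing apart from its group.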

How the results depend on the processing

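No called change or difference turned direction under any alternative. Among the members' changes from vehicle that were not called, the sign turned in 14 cases (settings with an array left out not counted), including PTGES in NCI-H660 at 0.5 µM (0.22 to -0.09) and, with the VCaP label at 10 µM, PTGES (-0.2 to 0.09) and PTGR1 (-0.27 to 0.08), each with the mean over probe sets. Without the floor, 1 member was called on the arrays labelled VCaP at 0.5 µM and 1 at 10 µM (AKR1C3), 1 in NCI-H660 at each concentration (PTGER4), and 5 between the arrays labelled VCaP and NCI-H660. In PC3 at 0.5 µM the count was 0 with median centring, with each line alone, with the replicate block, at an adjusted p under 0.05, in PC3 and NCI-H660 alone, and in every fit that left out an array of those groups (range 0 to 0), and 2 with no fold minimum. At 10 µM PC3 had 1 with each line alone (PTGS2) and 2 with any PC3 array of those groups left out. NCI-H660 at 10 µM had 2 with quantile normalization (PTGES and HPGD), 1 with median centring (PTGES), 3 with no fold minimum, and 0 to 1 with an array left out, the 1 being PTGES without 10 µM replicate 1. PTGR1 was the 1 member called between 10 and 0.5 µM on the arrays labelled VCaP with no fold minimum. The response at 0.5 µM differed for 1 member with median centring, at an adjusted p under 0.05 and with any array left out (PTGER4, range 1 to 1), and for 4 with an intensity trend, the mean over probe sets, or signals under 50 set to 50. At 10 µM it differed for 2 with the replicate block, 3 at an adjusted p under 0.05, and 2 to 6 with an array left out, and PTGES and PTGER4 were among them in each of these, but PTGER4 was not with signals under 50 set to 50. The 2 came without PC3 vehicle replicate 2 and without PC3 10 µM replicate 2, and any NCI-H660 array or PC3 10 µM replicate 1 left out gave 3. The replicate block also took AKR1C3 from the 4 that met the call rule at 0.5 µM on the arrays labelled LNCaP, leaving 3. AKR1C3 also dropped out on leaving out any array of those groups, or several arrays of other groups. That contrast chose the set, so nothing is read from which members remained. PTGS1 (LNCaP label against VCaP label) lost its call with any vehicle array of either left out. Leaving out several arrays of other groups also took the calls of PTGS1 and of PTGS2 in PC3 at 0.5 µM. The mean over probe sets moved PTGER4 on the arrays labelled LNCaP to -0.93 and -1.58, since it averages in the dim probe set. Median centring shifted the median change by -0.183 and -0.129 (LNCaP label, 0.5 and 10 µM), -0.133 (VCaP label, 10 µM) and 0.179 (NCI-H660, 10 µM), and turned the split of higher against lower genes there from 451 and 535 to 259 and 783, from 1240 and 1330 to 962 and 1642, from 581 and 985 to 415 and 1250, and from 395 and 724 to 638 and 511. Leaving out an array assumes that the single array left in its group varies as the remaining groups do. The cause of these changes was not tested. Signals near background limit PTGS1, PTGS2 outside PC3, and PTGER2.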
